A study of Mus musculus with 18 samples.

Results

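Transcript levels of 9 genes of mitochondrial fusion, fission and mitophagy (Mfn1, Mfn2, Opa1, Dnm1l, Fis1, Mff, Bnip3, Bnip3l and Fundc1) were followed in the mouse substantia nigra, the midbrain region that holds the dopaminergic neurons projecting to the striatum. The genes were taken as the table rows that carry these 9 names, 9 of the 55270 genes listed, and all 9 were among the 19443 genes with enough signal to test. The mice formed 3 groups of 6, with 1 poly-A RNA library per mouse. Intact mice are labelled WT, with no treatment named for them, AAV-GFP mice overexpressed green fluorescent protein from an adeno-associated virus (AAV), and in AAV-SIRT3 mice the virus carried SIRT3, which encodes a deacetylase of mitochondria. Tissue was collected at 3 months of age, a month after the virus was given. The strain, sex, injection site and dose of the mice, and the promoter that drove each transgene, are not given in the sources used here.

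Mitochondria form a network that is kept in shape by the joining and splitting of its tubules. The dynamin-related GTPases Mfn1 and Mfn2 join outer membranes and Opa1 joins inner membranes, whereas Dnm1l (the gene of DRP1) is recruited from the cytosol to constrict and cut the tubule, with Mff and Fis1 among the outer membrane proteins linked to that recruitment. Bnip3, Bnip3l (the gene of NIX) and Fundc1 sit in the outer membrane as mitophagy receptors, which bind ATG8-family proteins of the autophagosome and so mark a mitochondrion for removal without the kinase PINK1. Dopaminergic neurons have very long, branched axons that need a steady supply of mitochondria, and loss of PINK1 causes inherited parkinsonism.

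Promoter sequence is shown for Fis1 and Mff, which rose in AAV-SIRT3 against intact tissue, and for Opa1, whose estimate in that comparison lay below 0. Each sequence is the 250 bases before a RefSeq transcript start in GRCm38.p6, written 5′ to 3′ on the strand of the gene. The windows are chr5:136953025-136953274 on the plus strand for Fis1, chr1:82724640-82724889 on the plus strand for Mff and chr16:29579084-29579333 on the plus strand for Opa1. Capitals mark matches to CGGAAGT (the core bound by GABPA and other ETS factors), GCATGCGC (NRF1) or TCACATGA (a TFEB-type E-box) on either strand.
Fis1: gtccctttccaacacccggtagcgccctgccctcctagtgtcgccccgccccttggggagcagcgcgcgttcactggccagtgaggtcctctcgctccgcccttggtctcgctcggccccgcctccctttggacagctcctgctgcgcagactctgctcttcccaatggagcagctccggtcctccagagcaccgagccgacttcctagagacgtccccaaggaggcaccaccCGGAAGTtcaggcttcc
Mff: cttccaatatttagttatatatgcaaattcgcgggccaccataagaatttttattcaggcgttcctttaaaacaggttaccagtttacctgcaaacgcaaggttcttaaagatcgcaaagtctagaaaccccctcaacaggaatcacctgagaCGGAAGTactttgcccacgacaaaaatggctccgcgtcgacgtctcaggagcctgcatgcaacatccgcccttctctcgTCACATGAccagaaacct
Opa1: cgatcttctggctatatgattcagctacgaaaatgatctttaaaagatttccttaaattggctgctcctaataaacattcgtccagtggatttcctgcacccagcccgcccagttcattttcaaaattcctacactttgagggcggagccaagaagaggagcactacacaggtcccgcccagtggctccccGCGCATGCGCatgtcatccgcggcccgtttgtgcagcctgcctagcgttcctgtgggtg
The Fis1 window held CGGAAGT starting 17 bases before the transcript start. The Mff window held CGGAAGT 97 bases and TCACATGA 18 bases before its start, and the Opa1 window held GCATGCGC read on both strands of 1 overlapping palindromic site, starting 59 and 57 bases before its start. Matches to different motifs did not overlap each other.

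RefSeq promoter entries were found for 8 of the 9 genes, 13 entries in all, and Bnip3l had none. A gene counts below if any of its entries matched, while the percentages are over single promoters. A further Fis1 entry, chr5:136961827-136962076, held no match to the motifs searched, and not every Mfn2 entry held the match given below. A further Mff entry, chr1:82724668-82724917, held CGGAAGT matches 125 and 28 bases and TCACATGA 46 bases before its own start. CGGAAGT, searched on both strands, occurred for 3 of the 8 genes (Fis1, Mff and Mfn1) and in 4.92% of all 32851 promoters of the same length. GCATGCGC occurred for Opa1 and in 2.26% of all promoters, and TCACATGA for Mff and in 0.846%. The hypoxia response core ACGTG occurred for Bnip3 and Mfn2 and in 16.6% of all promoters. In Bnip3 it was read on both strands of 1 overlapping site, 108 and 107 bases before the start. The cAMP response element TGACGTCA (1.55% of all promoters), the FOXO core TGTTTAC (3.17%) and the E-box TCACGTGA (0.785%) occurred for 0 of the 8 genes in these windows. The matches describe the letters of the windows and were set against no binding data.

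In GENCODE M21 (GRCm38, the assembly also called mm10), the fusion genes Mfn1, Mfn2 and Opa1 lie on chromosome 3 from 32529465 to 32579239, on 4 from 147873599 to 147904704 and on 16 from 29579334 to 29654884. Among the fission genes, Dnm1l lies on 16 from 16312230 to 16358959, Fis1 on 5 from 136953275 to 136966234 and Mff on 1 from 82724890 to 82752394. The receptors Bnip3, Bnip3l and Fundc1 lie on 7 from 138890836 to 138909519, on 14 from 66985239 to 67008877 and on X from 17556564 to 17572325. All 9 are protein-coding genes. Genes of the opposite strand overlap Mfn2 (the pseudogene Gm13156), Dnm1l (Gm49521), Mff (C430014B12Rik) and Bnip3 (Gm45507 and the pseudogene Gm18258), and Gm28941 lies inside Mff on its own strand. The library kit keeps strand, but whether the counting used it is not given in the sources used here. Those 4 values may therefore hold reads of these overlapping genes or lack reads shared with them, and which of these holds was not tested. Fis1 has the shortest exon union of the 9, 1714 bases, and Mff the longest, 9757 bases, although its longest coding transcript is only 2087 bases.

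The libraries held 47182529 to 64728587 recovered reads on genes, and values are reads divided by the deposited size factor of each library (normalised reads). All 10 dopaminergic markers examined were detected, with a summed level of 47436 to 62957 normalised reads in intact libraries, 41120 to 52549 with AAV-GFP and 46903 to 55821 with AAV-SIRT3. Th, the rate-limiting enzyme of dopamine synthesis, stood at 5729 ± 761, 4711 ± 659 and 5756 ± 186 normalised reads, and Slc6a3, the dopamine transporter, at 11062 ± 1456, 8168 ± 1086 and 10251 ± 1245 (SD, n = 6 each, in that order of groups). The mouse gene Sirt3 stood at 1824 ± 66.3, 1775 ± 92.4 and 1937 ± 79.4. Whether transcripts of the SIRT3 carried by the vector are counted in these values was not tested. The log2 fold change of Sirt3 in AAV-SIRT3 against AAV-GFP, 0.13, did not pass (limma, adjusted p = 0.183), and the transcript checks the labels only weakly. The summed level of 8 thalamic markers ran from 68792 to 123868 in intact, 105310 to 119102 in AAV-GFP and 96608 to 127467 in AAV-SIRT3 libraries. In bulk tissue, fewer cells of a type and less RNA per cell cannot be told apart.

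Library by library, the balance between long and short transcripts also differed. The Spearman correlation, across genes, of a library's deviation from the gene mean with exon length ran from 0.062 to 0.166 in intact, from -0.300 to 0.106 in AAV-GFP and from -0.286 to -0.0225 in AAV-SIRT3 libraries. The lowest 3 values belonged to AAV-GFP replicate 2 (-0.300), AAV-SIRT3 replicate 6 (-0.286) and AAV-SIRT3 replicate 5 (-0.225). AAV-SIRT3 against intact is therefore given below also without these 3 libraries and with the length trend of each library removed.

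Per kilobase of exon union, a scale on which genes can be compared, Dnm1l had the highest mean level over the 18 libraries, 3654 normalised reads per kb. Fis1 followed at 3417, Bnip3l at 2455, Mfn2 at 2378, Fundc1 at 1732, Bnip3 at 1538, Opa1 at 1355, Mff at 1091 and Mfn1 at 1089. Neighbours in this order overlapped in their range over libraries, except Fis1 above Bnip3l, Mfn2 above Fundc1 and Opa1 above Mff. Of the fusion GTPases, Mfn2 therefore lay above both Opa1 and Mfn1 on this scale. The order depended on the length used. Per kb of the longest coding transcript Fis1 was highest, at 6177, then Mff at 5102 and Dnm1l at 4794, and the range of Dnm1l (4402 to 4987) lay wholly below that of Fis1 (5313 to 8158). Mfn1 was the lowest on both scales.

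Fis1 varied most among the 9 genes. Its highest library was 1.54 times its lowest, against 1.28 for Bnip3 and Opa1, 1.23 for Fundc1, 1.22 for Bnip3l and 1.13 to 1.16 for Mff, Mfn2, Dnm1l and Mfn1.

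**Figure D1:**
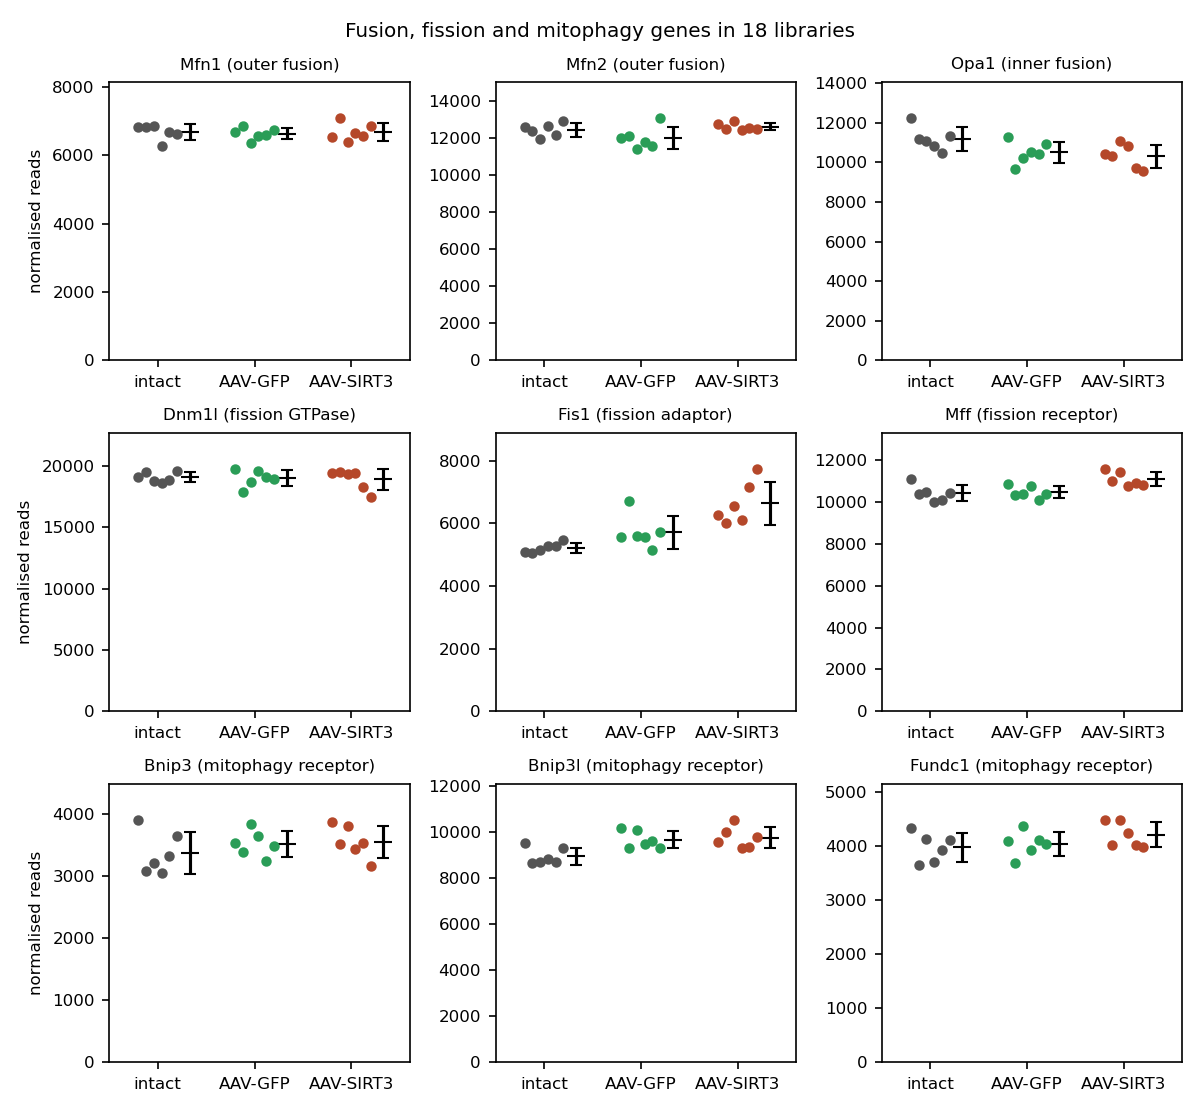
Normalised reads of the 9 genes in each of the 18 libraries (vertical axes, starting at 0), by group along the horizontal axis; points are libraries and the black bar is the mean with SD (n = 6). Fis1 is the gene whose AAV-SIRT3 libraries (6006 to 7734) all lie above its intact libraries (5037 to 5479), while the groups of the other 8 genes overlap.

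AAV-SIRT3 and AAV-GFP mice both received virus, and their comparison sets SIRT3 in place of GFP. AAV-GFP against intact takes together the virus, its delivery and GFP. AAV-SIRT3 against intact takes together the virus, its delivery and SIRT3. No treatment is named for intact mice, so these parts cannot be told apart in the comparisons against intact. Of the 9 genes, 0 passed an adjusted p of 0.05 in AAV-SIRT3 against AAV-GFP (limma), where 0.113% of all tested genes did (0.036% higher and 0.0771% lower). At an unadjusted p under 0.05 there were 3 (Fis1, Mff and Mfn2, each with an estimate above 0), where 15.2% of all genes had one. In AAV-GFP against intact again 0 of the 9 passed, where 1.84% of all genes did (0.823% higher and 1.02% lower), and 2 had an unadjusted p under 0.05 (Bnip3l and Fis1), where 19.1% of all genes did. In AAV-SIRT3 against intact 3 of the 9 were higher (Fis1, Bnip3l and Mff) and 0 lower, where 21.7% of all genes passed, 11.3% higher and 10.3% lower.

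The median log2 fold change of the 9 genes was 0.014 in AAV-SIRT3 against AAV-GFP, 0.0090 in AAV-GFP against intact and 0.077 in AAV-SIRT3 against intact. Over all tested genes the medians were -0.0041, 0.00074 and -0.0049. These comparisons share libraries: both comparisons against intact use the same intact libraries, and the AAV-GFP and AAV-SIRT3 libraries each enter a pair of comparisons. Their values are given side by side and are not independent of each other.

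**Figure D2:**
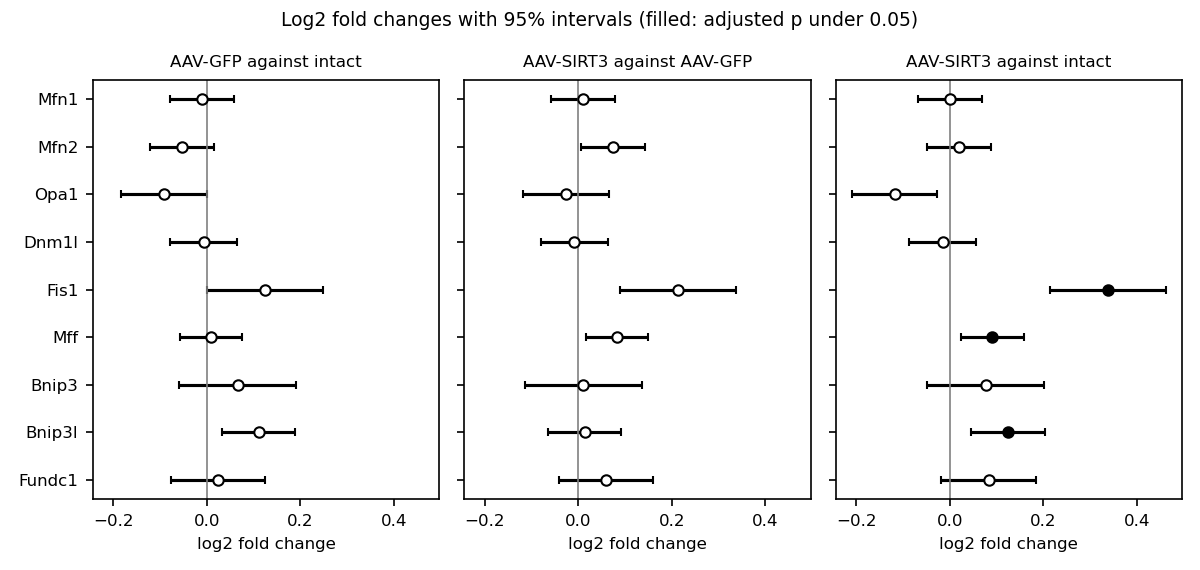
Log2 fold changes of the 9 genes (horizontal axes) in each of the 3 comparisons, with 95% intervals from limma over all 18 libraries; filled points passed an adjusted p of 0.05. Filled points occur in AAV-SIRT3 against intact, for Fis1 (0.34), Bnip3l (0.12) and Mff (0.09).

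Fis1, a small tail-anchored protein of the outer membrane, showed the largest difference of the 9. In intact libraries it stood at 5087, 5037, 5163, 5289, 5286 and 5479 normalised reads in replicates 1 to 6, a mean of 5223 ± 162 (SD, n = 6). AAV-GFP libraries held 5553, 6708, 5586, 5550, 5157 and 5724, a mean of 5713 ± 523, and AAV-SIRT3 libraries 6253, 6006, 6540, 6105, 7153 and 7734, a mean of 6632 ± 679. The lowest AAV-SIRT3 library lay above the highest intact library, while AAV-GFP replicate 2 lay above 4 of the 6 AAV-SIRT3 libraries and the remaining AAV-GFP libraries lay below all of them. Groups that do not overlap in AAV-SIRT3 against intact were found for 1 of the 9 genes, Fis1, and for 9.33% of all tested genes. In AAV-GFP against intact they were found for 0 of the 9 and 1.86% of all genes, and in AAV-SIRT3 against AAV-GFP for 0 of the 9 and 0.751%.

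Against intact, Fis1 rose in AAV-SIRT3 by a log2 fold change of 0.34 (SE 0.0597, 95% interval 0.21 to 0.46, limma adjusted p = 0.00105), or 26.5%, and was higher in 36 of 36 pairs of libraries. The estimate against AAV-GFP was 0.21 (SE 0.0597, interval 0.09 to 0.34, limma adjusted p = 0.122), higher in 32 of 36 pairs, which did not pass. Without AAV-GFP replicate 2 it was 0.26 and passed (limma adjusted p = 0.0161), in a fit where 4.43% of all genes passed instead of 0.113%. It also passed with DESeq2 on the recovered reads (0.21, adjusted p = 0.0446), which called 1.6% of all genes. With edgeR on the same reads it was 0.21 and did not pass (edgeR adjusted p = 0.136). The estimate of AAV-GFP against intact was 0.13 (interval 0.0012 to 0.25, limma adjusted p = 0.258), with 32 of 36 pairs higher in AAV-GFP.

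The 3 libraries with the highest Fis1 values, AAV-SIRT3 replicates 6 and 5 and AAV-GFP replicate 2, were also the 3 lowest in their correlation with exon length. Without them, Fis1 in AAV-SIRT3 against intact was 0.25 (limma adjusted p = 0.0006). With the trend on exon-union length removed from each library it was 0.24 (adjusted p = 0.0016), and with the trend on the length of the longest coding transcript removed it was 0.15 (adjusted p = 0.00775). In these 3 fits 15.1%, 16.9% and 13.1% of all genes passed. Fis1 passed in this comparison under each of the 31 alternative settings run. In AAV-SIRT3 against AAV-GFP the same 3 settings gave 0.18 (adjusted p = 0.0667), 0.17 (0.104) and 0.12 (0.125), and none of them passed, where 0.149%, 0.122% and 0.203% of all genes did.

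**Figure D3:**
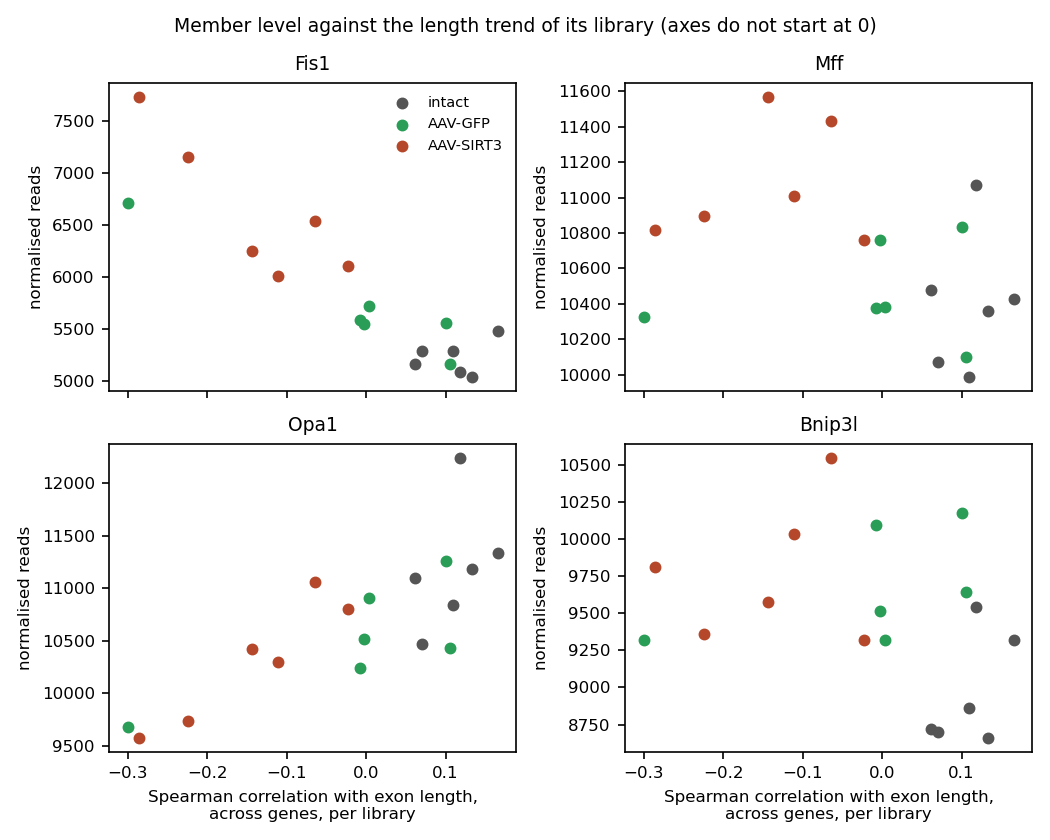
Normalised reads of Fis1, Mff, Opa1 and Bnip3l (vertical axes, not starting at 0) in each library against the library's Spearman correlation with exon length across genes (horizontal axis); each point is 1 library, coloured by group. The 3 libraries at the left, at -0.225 or below, hold the 3 highest Fis1 values and the 3 lowest Opa1 values.

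Mff, an outer membrane receptor of DRP1, differed much less. Intact libraries held 11073, 10362, 10481, 9988, 10075 and 10428 normalised reads (mean 10401 ± 384, SD, n = 6). AAV-GFP libraries held 10835, 10324, 10379, 10760, 10101 and 10383 (10464 ± 279.6), and AAV-SIRT3 libraries 11567, 11007, 11429, 10758, 10895 and 10817 (11079 ± 338). Intact replicate 1 lay inside the AAV-SIRT3 range and the other 5 intact libraries lay below it. Among AAV-GFP libraries, replicates 1 and 4 lay inside it and the other 4 below.

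Mff rose in AAV-SIRT3 against intact by a log2 fold change of 0.09 (SE 0.0322, interval 0.02 to 0.16, limma adjusted p = 0.0468), or 6.53%, and was higher in 32 of 36 pairs. The call was at the edge of the threshold: it was kept in 13 of 31 alternatives and lost in 12 of the 18 fits that left out 1 library, which omitted intact replicate 2, 3, 4, 5 or 6, AAV-GFP replicate 3, 4 or 6, or AAV-SIRT3 replicate 1, 2, 3 or 5. Among the other settings it was also lost with edgeR (0.08, adjusted p = 0.0895) and TMM factors (0.08, limma adjusted p = 0.0784). The same held for the 2 groups alone (0.09, limma adjusted p = 0.0622) and all genes above 0 (0.09, 0.0971). Without the 3 libraries lowest in the length correlation it was 0.11 (limma adjusted p = 0.0499). The length trend acted on it in opposite directions by definition of length, 0.18 (adjusted p = 0.00205) with exon union and 0.02 (0.782) with the longest coding transcript. Against AAV-GFP the estimate was 0.08 (interval 0.02 to 0.15, limma adjusted p = 0.238), and AAV-GFP against intact gave 0.01 (0.913).

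Dnm1l, the GTPase that Mff recruits, held 18661 to 19622 normalised reads in intact (median 19012), 17909 to 19779 in AAV-GFP (19055) and 17459 to 19525 in AAV-SIRT3 libraries (19405). The groups overlapped. Its log2 fold changes were -0.02 in AAV-SIRT3 against intact (interval -0.09 to 0.06, limma adjusted p = 0.786), -0.01 against AAV-GFP (interval -0.08 to 0.06, 0.931) and -0.01 in AAV-GFP against intact (interval -0.08 to 0.06, 0.939). Without the 3 libraries lowest in the length correlation, AAV-SIRT3 against intact gave 0.03 (limma adjusted p = 0.600). It was -0.0014 with exon-union length removed (0.979) and -0.0028 with coding-transcript length removed (0.960).

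Of the fusion genes, Opa1 had the estimate furthest from 0 in both comparisons against intact. In AAV-SIRT3 against AAV-GFP, Mfn2 had it (0.07, where Opa1 was at -0.03). Opa1 held 12244, 11186, 11096, 10837, 10464 and 11337 normalised reads in intact (mean 11194 ± 599, SD, n = 6). AAV-GFP libraries held 11258, 9681, 10235, 10513, 10435 and 10906 (10505 ± 545), and AAV-SIRT3 libraries 10417, 10298, 11062, 10802, 9738 and 9576 (10315 ± 581). The groups overlapped, and the lowest values were those of the 3 libraries lowest in the length correlation.

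Opa1 stood at -0.12 in AAV-SIRT3 against intact (SE 0.0442, interval -0.21 to -0.03, limma adjusted p = 0.0597), higher in 3 of 36 pairs, which did not pass. It passed with DESeq2 (-0.12, adjusted p = 0.0466), which called 23.7% of all genes, and in 4 of the fits that left out 1 library, without intact replicate 5 (-0.14, limma adjusted p = 0.0411), AAV-GFP replicate 2 (-0.12, 0.0430), AAV-SIRT3 replicate 3 (-0.14, 0.0370) or AAV-SIRT3 replicate 4 (-0.13, 0.0463). Without the 3 libraries lowest in the length correlation it was -0.07 (limma adjusted p = 0.257). With the length trend removed it was -0.06 (adjusted p = 0.301) by exon union and -0.03 (0.518) by longest coding transcript. AAV-GFP against intact gave -0.09 (interval -0.18 to 0.00012, adjusted p = 0.263) and AAV-SIRT3 against AAV-GFP -0.03 (interval -0.12 to 0.07, 0.820).

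The ratio of Fis1 to Opa1 within a library, on the log2 scale and as a description, ran from -1.27 to -0.99 in intact (median -1.08), from -1.02 to -0.53 in AAV-GFP (-0.93) and from -0.82 to -0.31 in AAV-SIRT3 libraries (-0.75). These genes were paired after their values were seen, and Fis1 alone already separates AAV-SIRT3 from intact libraries, so the ratio adds no separate evidence. Its 3 highest values, -0.31, -0.45 and -0.53, belonged to AAV-SIRT3 replicates 6 and 5 and AAV-GFP replicate 2, the 3 libraries lowest in the length correlation. The exon union is 1714 bases in Fis1 and 7875 bases in Opa1.

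The mitofusins differed little. Mfn1 held 6263 to 6846 normalised reads in intact (median 6744), 6365 to 6845 in AAV-GFP (6621) and 6377 to 7090 in AAV-SIRT3 libraries (6599), and its estimate in AAV-SIRT3 against intact was -4.41e-05 (interval -0.07 to 0.07, limma adjusted p = 0.999). Its estimates were 0.01 against AAV-GFP (interval -0.06 to 0.08, 0.916) and -0.01 in AAV-GFP against intact (interval -0.08 to 0.06, 0.905). Mfn2, which also tethers mitochondria to the endoplasmic reticulum, held 11942 to 12906 in intact (median 12488), 11422 to 13093 in AAV-GFP (11902) and 12444 to 12907 in AAV-SIRT3 libraries (12537). Its AAV-SIRT3 libraries were tightly grouped (12614 ± 180.3, SD, n = 6) and lay inside the AAV-GFP range. Mfn2 was 0.07 higher on the log2 scale in AAV-SIRT3 than in AAV-GFP (interval 0.0047 to 0.14, limma adjusted p = 0.297), -0.05 in AAV-GFP against intact (interval -0.12 to 0.02, 0.401) and 0.02 in AAV-SIRT3 against intact (interval -0.05 to 0.09, 0.705), and none of these passed. Set against intact, Mfn1 in AAV-SIRT3 was -0.0029, 0.03 and 0.04 and Mfn2 0.03, 0.03 and 0.05 without the 3 libraries, with exon-union length removed and with coding-transcript length removed, and none passed (limma, adjusted p from 0.341 to 0.968).

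Of the mitophagy receptors, Bnip3l rose in AAV-SIRT3 against intact and had about the same level in both AAV groups. Intact libraries held 9540, 8662, 8717, 8860, 8698 and 9318 normalised reads (mean 8966 ± 372, SD, n = 6). AAV-GFP libraries held 10176, 9320, 10095, 9516, 9644 and 9320 (9679 ± 376), and AAV-SIRT3 libraries 9577, 10032, 10546, 9318, 9361 and 9813 (9774 ± 465). Intact replicate 1 lay inside the range of both AAV groups, intact replicate 6 was level with the lowest AAV library, and the other 4 intact libraries lay below every AAV library.

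In AAV-SIRT3 against intact the log2 fold change of Bnip3l was 0.12 (SE 0.0378, interval 0.05 to 0.20, limma adjusted p = 0.0233), or 8.99%, with 34 of 36 pairs higher. AAV-GFP against intact gave 0.11 (interval 0.03 to 0.19, adjusted p = 0.115), with 33 of 36 pairs higher, and this did not pass. AAV-SIRT3 against AAV-GFP gave 0.01 (interval -0.06 to 0.09, adjusted p = 0.900). The call against intact was kept without the 3 libraries lowest in the length correlation (0.14, adjusted p = 0.0307) and with coding-transcript length removed (0.11, 0.0376), and missed with exon-union length removed (0.10, 0.0631). It was also lost without intact replicate 2 (0.11, limma adjusted p = 0.0513), intact replicate 3 (0.12, 0.0509), intact replicate 5 (0.12, 0.0505) or AAV-SIRT3 replicate 3 (0.10, 0.0599).

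Thalamic markers were higher in both AAV groups than in intact tissue by their median log2 fold change, 0.42 in AAV-SIRT3 and 0.47 in AAV-GFP. Of the 8, 4 passed as higher in AAV-SIRT3 against intact, where 11.3% of all genes did, and 1 in AAV-GFP against intact, where 0.823% did. At an unadjusted p under 0.05 there were 6 and 7 of the 8 in these comparisons, where 34.9% and 19.1% of all genes had one in either direction. With the thalamic score of each library as a covariate, Fis1 was 0.36 in AAV-SIRT3 against intact (limma adjusted p = 0.0072), Bnip3l 0.12 (0.0854) and Mff 0.10 (0.109), so that 1 of the 9 genes passed, where 11.8% of all genes did. In AAV-SIRT3 against intact, where 11.3% of all genes were higher and 10.3% lower, 3 of 7 microglial and 2 of 7 oligodendrocyte markers were higher. Pan-neuronal markers had 2 of 8 higher and 1 lower, and endothelial markers 1 of 7 higher and 3 lower. Anterior pituitary markers had 4 of 5 tested lower (median -3.16) and choroid plexus markers 2 of 6 lower (median -1.31). The astrocyte, red blood cell and dopaminergic lists had 0 called there. In AAV-GFP against intact 2 of 10 dopaminergic and 4 of 5 pituitary markers were lower, where 1.02% of all genes were. Higher in AAV-GFP than in intact were 1 of 7 astrocyte markers (Gfap, 0.50, limma adjusted p = 0.0388) and 1 of 7 microglial markers (Aif1, 0.47, 0.0283). In that comparison 0.823% of all genes were higher. The part of these cell types in the values of Fis1, Mff and Bnip3l was not tested beyond the thalamic covariate.

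Bnip3, a hypoxia-inducible receptor closely related to Bnip3l, did not pass in any of the 3 comparisons. It held 3055 to 3906 normalised reads in intact (median 3271), 3237 to 3844 in AAV-GFP (3517) and 3164 to 3866 in AAV-SIRT3 libraries (3521), and the intact range contained that of both AAV groups. Its estimate in AAV-SIRT3 against intact was 0.08 with a wide interval of -0.05 to 0.20 (limma adjusted p = 0.383), against 0.07 in AAV-GFP against intact (0.586) and 0.01 between the virus groups (0.951). The first of these was 0.12 without the 3 libraries (limma adjusted p = 0.226), 0.0019 with exon-union length removed (0.986) and -0.02 with coding-transcript length removed (0.872). The difference between Bnip3l and Bnip3 in this response was not tested.

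Fundc1, a receptor controlled by phosphorylation, held 3645 to 4332 normalised reads in intact (median 4022), 3697 to 4370 in AAV-GFP (4069) and 3992 to 4487 in AAV-SIRT3 libraries (4136). Its groups overlapped in each comparison. The estimates were 0.08 in AAV-SIRT3 against intact (interval -0.02 to 0.18, limma adjusted p = 0.234), 0.06 against AAV-GFP (interval -0.04 to 0.16, 0.592) and 0.02 in AAV-GFP against intact (interval -0.08 to 0.12, 0.832). For AAV-SIRT3 against intact it was 0.12 without the 3 libraries (limma adjusted p = 0.117), 0.01 with exon-union length removed (0.915) and 0.0020 with coding-transcript length removed (0.986).

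**Figure D4:**
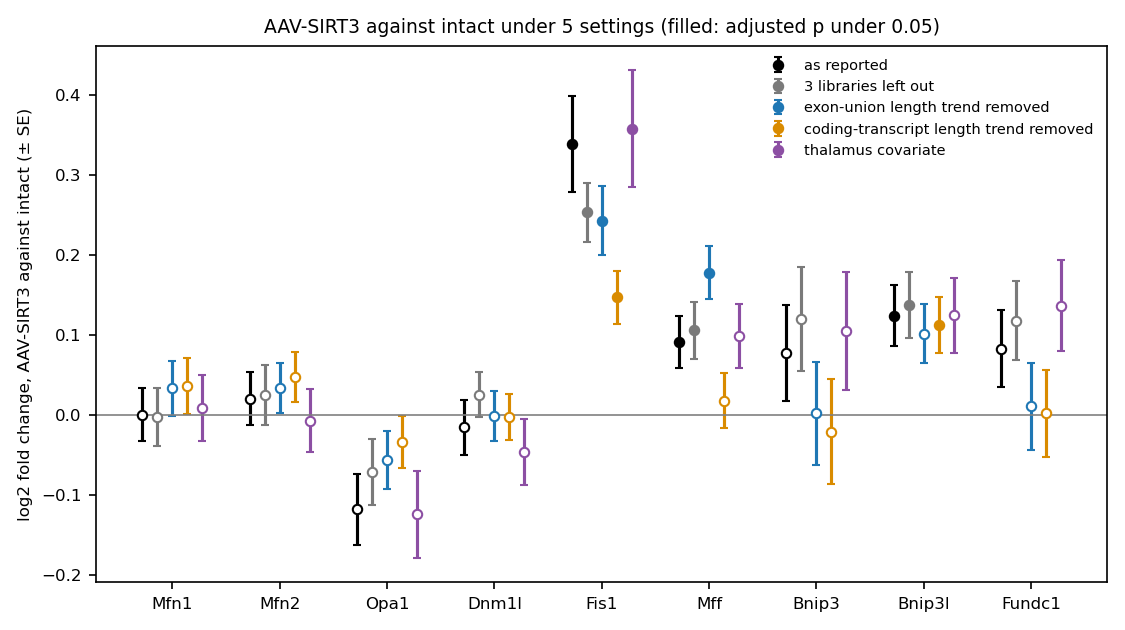
Log2 fold changes of the 9 genes in AAV-SIRT3 against intact (vertical axis, with SE) under 5 settings given by colour; filled points passed an adjusted p of 0.05. Fis1 is filled under all 5, from 0.15 to 0.36, and Mff moves from 0.18 to 0.02 between the definitions of length.

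The genes whose profile over the 18 libraries was most like that of each gene that passed were found by the root-mean-square (RMS) difference of log2 values centred on each gene's own mean, among 15244 genes. Those nearest to Fis1 were D8Ertd738e (RMS difference 0.0401) and Uqcrq (0.0407), where Fis1 itself varied around its mean by an RMS of 0.174. For Mff (own RMS 0.0583) they were Slc30a9 (0.0382) and Atp6v1c1 (0.0407), and for Bnip3l (own RMS 0.0787) Gm2a (0.0395) and Rab7 (0.0450). The differences for Mff and Bnip3l are not far below the genes' own variation. The exon union is 616 bases in D8Ertd738e and 1831 bases in Uqcrq, against 1714 bases in Fis1. The part of length in this likeness was not tested.

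Around the 9 genes, 84 others of the same pathways were examined in 8 lists, and all 84 were tested. In AAV-SIRT3 against AAV-GFP 0 of the 84 passed (limma, median log2 fold change 0.02), where 0.113% of all genes did. At an unadjusted p under 0.05 there were 17 of the 84, where 15.2% of all genes had one. In AAV-GFP against intact 0 were higher and 2 lower, where 0.823% and 1.02% of all genes were. These were Pld6, a mitochondrial phospholipase D that promotes fusion (-0.68, limma adjusted p = 0.0308), and Pfkfb3, a glycolytic regulator (-0.24, 0.0351). Among the 18 fits that each omitted 1 library, the call was missing in 6 for Pld6 and in 8 for Pfkfb3. Over all 31 alternatives it was missing in 9 and 13, and with the thalamic covariate Pld6 was -0.55 (limma adjusted p = 0.252) and Pfkfb3 -0.12 (0.361). In AAV-SIRT3 against intact 17 of the 84 were higher and 4 lower (median 0.05), where 11.3% and 10.3% of all genes were.

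The ATG8 family, the ubiquitin-like proteins of the autophagosome membrane to which mitophagy receptors bind, had 4 of its 5 genes higher in AAV-SIRT3 than in intact tissue, where 11.3% of all genes were, with a family median of 0.17. Map1lc3a rose by 0.31 (SE 0.058, limma adjusted p = 0.00135), Gabarap by 0.32 (SE 0.063, 0.00181), Gabarapl1 by 0.17 (SE 0.0345, 0.00206) and Gabarapl2 by 0.16 (0.0312), while Map1lc3b was at 0.08 (0.233). For Map1lc3a, Gabarap and Gabarapl1 every AAV-SIRT3 library lay above every intact library, and 9.33% of all genes had groups that did not overlap in this comparison. Without the 3 libraries lowest in the length correlation these 3 were 0.25, 0.25 and 0.15 and passed. With coding-transcript length removed they were 0.14 (adjusted p = 0.0126), 0.18 (0.0128) and 0.08 (0.0642), and the call for Gabarapl1 was lost. Against AAV-GFP 0 of the 5 passed (family median 0.13), where 0.113% of all genes did. Gabarapl1 was 0.16 there (limma adjusted p = 0.0708), with every AAV-SIRT3 library above every AAV-GFP library, as held for 0.751% of all genes in either direction. Map1lc3a was 0.21 (0.122), Gabarap 0.13 (0.319), Gabarapl2 0.09 (0.386) and Map1lc3b 0.06 (0.560). In AAV-GFP against intact 0 of the 5 passed (family median 0.06), where 1.84% of all genes did.

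The list of PINK1-dependent mitophagy had 3 of 12 genes higher and 2 lower in AAV-SIRT3 against intact, where 11.3% of all genes were higher and 10.3% lower. Pink1, the kinase that accumulates on depolarised mitochondria, held 21780 ± 1192 normalised reads in AAV-SIRT3 libraries, 19847 ± 1205 in AAV-GFP and 18641 ± 881 in intact (SD, n = 6 each). It rose by 0.22 in AAV-SIRT3 against intact (SE 0.0446, limma adjusted p = 0.00195) and stayed past the threshold under each of the 31 alternatives. Every AAV-SIRT3 library lay above every intact library, and 9.33% of all genes had groups that did not overlap in this comparison. The Pink1 estimate against AAV-GFP was 0.13 (limma adjusted p = 0.182), and AAV-GFP against intact gave 0.09 (0.278). Without AAV-GFP replicate 2 the estimate against AAV-GFP passed (0.16, limma adjusted p = 0.0329), in a fit where 4.43% of all genes passed instead of 0.113%. Tomm7, a translocase subunit that stabilises PINK1 on the outer membrane, rose by 0.31 (SE 0.0667, adjusted p = 0.00305), and was 0.15 (adjusted p = 0.0484) with coding-transcript length removed.

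Of the same list, Sqstm1, a ubiquitin-binding autophagy adaptor, rose by 0.12 in AAV-SIRT3 against intact (limma adjusted p = 0.0216), while Optn, another such adaptor, fell by 0.16 (0.0405), and the deubiquitinase Usp8 fell by 0.14 (0.0381).

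The remaining lists are to be read against the 11.3% of all genes that were higher and the 10.3% that were lower in AAV-SIRT3 against intact. Among other mitophagy receptors and their regulators 3 of 8 were higher and 0 lower: Fkbp8, an outer membrane receptor (0.22, SE 0.0483, limma adjusted p = 0.00328), Bcl2l1 (0.24, 0.0044) and Phb2, an inner membrane receptor (0.18, 0.015). Of 13 fission adaptors and regulators 3 were higher and 0 lower, namely Mtfp1 (0.22, limma adjusted p = 0.00423), Mief2, another DRP1 receptor (0.25, 0.024), and the ubiquitin ligase gene Marchf5 (0.13, 0.0267). Of 9 genes of the fusion machinery and its proteases 1 was higher, Stoml2 (0.17, 0.0454), and 0 lower. The autophagy core had 3 of 16 higher, Atg5 (0.19, 0.00944), Atg101 (0.23, 0.0329) and Atg16l1 (0.15, 0.0414), and 1 lower, Atg9a (-0.21, 0.00434). Of the 4 transport genes 0 passed, and of the 17 HIF and FOXO factors and targets 1 was lower, Pfkfb3 (-0.24, 0.00589), and 0 higher. Genes of these lists other than Map1lc3a, Gabarap, Pink1, Gabarapl1, Tomm7, Fkbp8 and, for AAV-GFP against intact, Pld6 and Pfkfb3 were named after their values were seen. The number that passed in AAV-SIRT3 against intact was 14 of 84 without the 3 libraries lowest in the length correlation, where 15.1% of all genes passed. It was 23 with exon-union length removed, where 16.9% of all genes passed, and 10 with the thalamic covariate, where 11.8% did. The counts under the first and last of these settings were near the share of all genes.

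**Figure D5:**
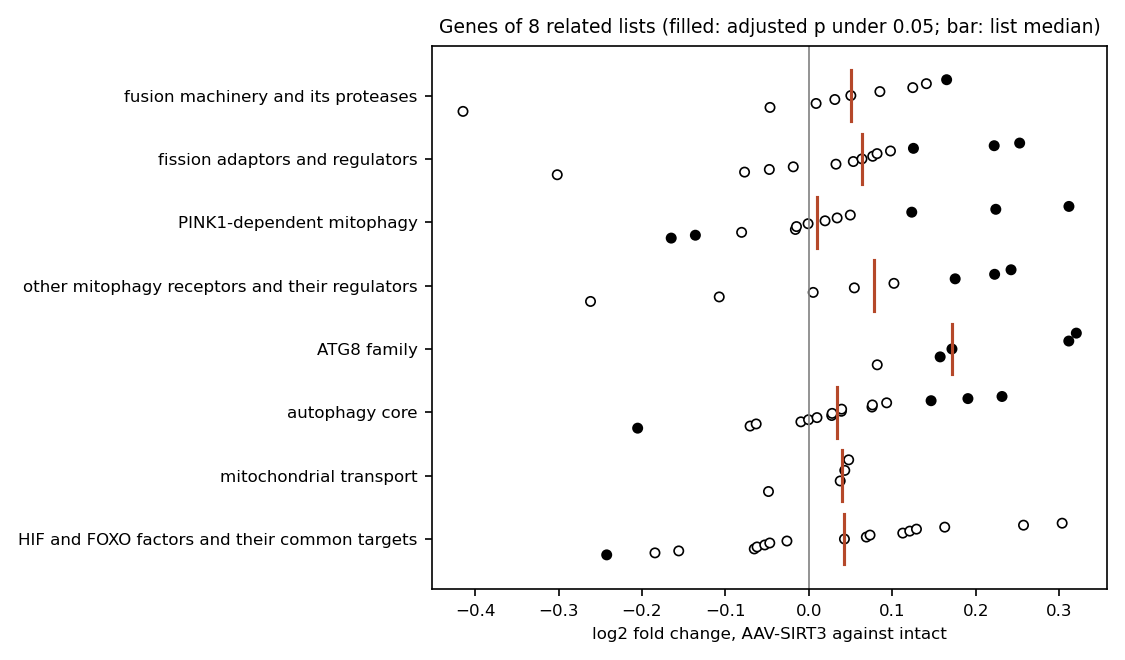
Log2 fold changes in AAV-SIRT3 against intact (horizontal axis) of the 84 genes in 8 related lists (rows); each point is a gene, filled where the adjusted p was under 0.05, and the red bar is the list median. The ATG8 row has 4 of 5 points filled and the highest median, 0.17.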

How the data were processed

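The authors deposited 1 table of 55270 genes by 18 libraries, whose values are a signal per gene, per the table's name HTSeq read counts normalised by DESeq2. HISAT2 2.1.0, DESeq2 1.34.0 and the build mm10 are named in the submitters' processing notes, and the annotation and strand setting are not given in the sources used here. Each deposited column was a set of whole reads divided by 1 size factor. Multiplied back, 100% of values were whole within a tolerance of 1e-06, with weaker proof for intact replicate 4 and AAV-SIRT3 replicate 4, whose factors are near 1. All 18 columns were matched to samples by name (0 unmatched). Standard errors, intervals and p-values come from the spread between mice. Depth speaks of counting error alone, and without molecular identifiers reads may be copies of 1 molecule. Replicates are separate mice per the series' design, and replicates of a group differed beyond sampling noise (chi-square per degree of freedom 8.27 to 36.6).

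Values were transformed to log2(value + 1), on which scale fold changes are given. The 19443 genes with at least 10 in at least 6 libraries were tested in R 4.3.3 with limma 3.58.1, using 1 model for all 3 groups (15 residual degrees of freedom, trended prior variance), and p-values were adjusted by Benjamini-Hochberg over all tested genes of a comparison. Intervals are 95% limma intervals. Alternatives were pseudocounts of 0.5 and 10, all genes above 0, a mean of at least 50, TMM factors, count tests on the recovered reads (edgeR 4.0.16, DESeq2 1.42.0), a fit restricted to 2 groups, a replicate block, a thalamic marker score as covariate, removal of each library's trend with exon-union length (lowess), and leaving out each library. Removal of the trend with the longest coding transcript, and leaving out the 3 libraries lowest in the length correlation, were chosen after seeing the data. Length and position came from GENCODE M21 by symbol (9 of 9 genes). The procedure was tested on simulated data. Those data had no length trend, and their planted changes were larger than any estimate of the 9 genes, so changes of this size were not covered.

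The 9 genes and the lists were chosen with earlier results of these data known. Of the pathway lists, up to 6 genes with the smallest adjusted p per comparison were named by rule, with Pink1 in any case, and for each gene that passed, the 2 tested genes with a mean of at least 50 nearest in profile. 1 gene of the planned lists is not reported here.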

Additional observations from a re-analysis of the deposited data

Results flagged for a closer look

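In each group of 6 libraries, the gap between the highest or lowest library and its nearest neighbour was set against the group's range, and compared with Dixon's 95% limit for a group of this size. With 9 genes in 3 groups, 27 such sets were examined and 1 exceeded the limit, where chance gives about 5% of groups. It was Fis1 in AAV-GFP replicate 2, at 6708 normalised reads against 5724 in the next AAV-GFP library, a gap of 0.634 of the range. The same library had the lowest correlation with exon length of all 18 (-0.300). Without it Fis1 in AAV-SIRT3 against AAV-GFP was 0.26 (limma adjusted p = 0.0161), compared with 0.21 (0.122) with it.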

How the results depend on the processing

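Of the 9 genes, 0 passed in AAV-GFP against intact under each of the 31 alternatives. In AAV-SIRT3 against AAV-GFP 1 (Fis1) passed with DESeq2, where 1.6% of all genes did. Leaving out each library gave 0 to 1, the 1 without AAV-GFP replicate 2, where 4.43% of all genes passed. In AAV-SIRT3 against intact 1 passed with the thalamic covariate, where 11.8% of all genes did, and 1 without intact replicate 2 or 3. Leaving out each library gave 1 to 4 there, in fits where 3279 to 4633 of all genes passed. Of the 84 pathway genes, AAV-SIRT3 against AAV-GFP gave 3 with DESeq2, where 1.6% of all genes passed. It gave 0 to 6 without a library, the 6 without AAV-GFP replicate 2, where 4.43% of all genes passed. AAV-GFP against intact gave 0 with all genes above 0 or the thalamic covariate, and 4 with DESeq2, where 999 of the 19443 tested genes passed. It gave 1 with the 2 groups alone, either length correction or without the 3 libraries (0 to 3 without a library). AAV-SIRT3 against intact gave 10 with the thalamic covariate, where 11.8% of all genes passed (13 to 24 without a library). Of all genes, 290 passed in AAV-GFP against intact with exon-union length removed, and the counts for the other settings follow.

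Over all genes, the 22 calls of AAV-SIRT3 against AAV-GFP became 311 with DESeq2, 8 with the 2 groups alone and 5 to 861 without a library. The 358 of AAV-GFP against intact became 164 with all genes above 0, 999 with DESeq2, 199 with the 2 groups alone, 33 with the thalamic covariate, 214 without the 3 libraries, 209 with coding-transcript length removed and 129 to 686 without a library. The 4214 of AAV-SIRT3 against intact became 2289 with the thalamic covariate, 2002 with coding-transcript length removed and 3279 to 4633 without a library. The cause of these shifts was not tested.

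Estimates that changed sign were small and none of them passed. With exon-union length removed these were, in AAV-SIRT3 against AAV-GFP, Opa1 0.0019 and Bnip3 -0.025. In AAV-GFP against intact they were Mfn1 0.0072, Dnm1l 0.00060 and Fundc1 -0.014, and in AAV-SIRT3 against intact Mfn1 0.033. With coding-transcript length removed they were Opa1 0.0076 and Bnip3 -0.035 in AAV-SIRT3 against AAV-GFP, Mfn1 0.010, Mff -0.032 and Fundc1 -0.020 in AAV-GFP against intact, and Mfn1 0.036 and Bnip3 -0.021 in AAV-SIRT3 against intact. Without the 3 libraries Dnm1l was 0.015, 0.010 and 0.025 in AAV-SIRT3 against AAV-GFP, AAV-GFP against intact and AAV-SIRT3 against intact. With the thalamic covariate Mfn1 was 0.0081 and Mfn2 -0.0071 in AAV-SIRT3 against intact. Leaving out each library turned signs within -0.018 to 0.010 (Dnm1l), -0.00060 to 0.049 (Fundc1), -0.0025 to 0.027 (Mff) and -0.028 to 0.0014 (Mfn1) in AAV-GFP against intact. In AAV-SIRT3 against AAV-GFP the ranges were -0.014 to 0.044 (Bnip3), -0.0084 to 0.028 (Bnip3l), -0.026 to 0.014 (Dnm1l) and -0.0074 to 0.023 (Mfn1), and in AAV-SIRT3 against intact -0.025 to 0.0074 (Dnm1l) and -0.018 to 0.013 (Mfn1).

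Replicate numbers did not pair the samples: over 18 pairs of same-numbered libraries the correlation of deviations ran from -0.0953 to 0.175, with 1 above 0.1, and 1 library correlated best with its own number. With a replicate block, 0, 0 and 3 of the 9 genes and 0, 2 and 21 of the 84 pathway genes passed, as without it, and 13, 372 and 3923 of all genes did (AAV-SIRT3 against AAV-GFP, AAV-GFP against intact, AAV-SIRT3 against intact).

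The shallowest library held 47182529 reads on genes, and every library gave each of the 9 genes at least 3055 normalised reads. Replicates differed beyond counting error, by a chi-square per degree of freedom of at least 8.27.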
